A study of Mus musculus with 4 samples.

Results

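Connexins are the membrane proteins that dock between neighbouring cells to form gap junctions, and 7 connexin genes of glia and vessels were followed here in mouse optic nerve. They were taken by name as genes of oligodendrocytes (Gjc3 and Gjb1), astrocytes (Gja1, Gjb6 and Gjb2) and vessels (Gjc1 and Gja4), and they make up 7 of the 55401 genes listed. Bulk polyA RNA was sequenced from 2 libraries with the genotype label Dor cKO, a conditional knockout of the gene the labels call Dor, and from 2 libraries with the label Dor WT, which served as controls. All 4 libraries came from optic nerves of Mus musculus, and no treatment was given in the labels. Age, sex, strain, the allele, the cell type in which the deletion was driven and how many animals gave a library are not given in the sources used here. A suffix that could denote an age stands in the table names of Dor WT but not of Dor cKO, so any difference in age and the genotype cannot be told apart. Nothing states that the libraries of a group came from separate animals, so the p-values measure only the spread between these libraries, which may be technical.

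In the optic nerve, astrocytes form a coupled network through gap junctions, and oligodendrocytes join it through junctions between the 2 cell types. Gja1 encodes connexin 43 (Cx43), the main astrocyte connexin, and Gjb6 encodes Cx30, its partner in mature astrocytes. Gjb2 encodes Cx26, found in astrocytes and in the leptomeninges that wrap the nerve. Gjb1 encodes Cx32, which oligodendrocytes place in their myelin and which couples to astrocyte Cx30 and Cx26. Gjc3 encodes Cx29 of the innermost myelin membrane, which is not known to form gap junctions and lies opposite axonal potassium channels. Gjc1 encodes Cx45, known in vascular smooth muscle and pericytes, and Gja4 encodes Cx37, known in arterial endothelium.

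The genes lie on 6 chromosomes of the build GRCm38, and no other annotated gene overlaps any of them. Gjc3 (ENSMUSG00000056966) spans chr5:137953461-137963098 on the minus strand, and Gjb1 (ENSMUSG00000047797) spans chrX:101376378-101385629 on the plus strand. Gja1 (ENSMUSG00000050953) spans chr10:56377330-56402513 on the plus strand. Gjb2 (ENSMUSG00000046352) at chr14:57098600-57104702 and Gjb6 (ENSMUSG00000040055) at chr14:57123303-57133611 are neighbours on the minus strand, with 18600 bases between them. Gjc1 (ENSMUSG00000034520) spans chr11:102799579-102819700 and Gja4 (ENSMUSG00000050234) spans chr4:127311421-127314039, both on the minus strand.

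The promoters of 2 genes that were lower and of 2 that were higher in Dor cKO are shown because the results turn on these members. They are RefSeq windows on GRCm38.p6 of 300 bases, from 250 before to 50 after a start site, each written in the direction of its gene. Capitals mark ACAAAG, the core recognised by SOX factors such as the oligodendrocyte factor SOX10, and GGGCGG, the GC box, with matches on either strand marked. The Gjc3 window is chr5:137963049-137963348 (minus strand), and the Gjb1 window is chrX:101383482-101383781 (plus strand). The Gjb2 window is chr14:57104653-57104952 and the Gjb6 window chr14:57133562-57133861, both on the minus strand.
Gjc3: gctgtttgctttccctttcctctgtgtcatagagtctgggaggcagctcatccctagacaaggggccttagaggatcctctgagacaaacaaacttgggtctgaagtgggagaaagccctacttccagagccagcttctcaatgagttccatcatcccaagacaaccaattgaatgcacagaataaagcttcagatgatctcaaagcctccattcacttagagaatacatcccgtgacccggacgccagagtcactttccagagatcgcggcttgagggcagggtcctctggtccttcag
Gjb1: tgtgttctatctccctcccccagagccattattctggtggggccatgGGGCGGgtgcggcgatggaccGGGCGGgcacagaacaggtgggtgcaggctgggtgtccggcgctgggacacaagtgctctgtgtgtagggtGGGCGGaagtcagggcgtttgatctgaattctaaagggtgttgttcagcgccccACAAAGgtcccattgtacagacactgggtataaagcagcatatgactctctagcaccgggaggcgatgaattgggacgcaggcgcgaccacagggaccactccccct
Gjb2: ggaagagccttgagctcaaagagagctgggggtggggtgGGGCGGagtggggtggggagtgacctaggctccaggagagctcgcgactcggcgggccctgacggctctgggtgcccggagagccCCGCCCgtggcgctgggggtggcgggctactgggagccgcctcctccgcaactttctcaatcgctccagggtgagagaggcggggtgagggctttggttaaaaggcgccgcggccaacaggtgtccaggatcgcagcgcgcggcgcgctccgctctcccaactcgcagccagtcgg
Gjb6: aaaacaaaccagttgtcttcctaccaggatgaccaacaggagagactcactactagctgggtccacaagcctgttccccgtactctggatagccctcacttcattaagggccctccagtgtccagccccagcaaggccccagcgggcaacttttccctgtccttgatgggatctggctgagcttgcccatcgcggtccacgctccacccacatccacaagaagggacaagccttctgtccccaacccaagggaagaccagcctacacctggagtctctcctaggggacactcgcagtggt

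The Gjb1 window held the SOX core at position -57 from the RefSeq start site and 3 GC boxes at -203, -182 and -111. The Gjb2 window held 2 GC boxes, at -211 on the strand of the gene and at -126 on the other strand. The Gjc3 and Gjb6 windows held neither set of letters. RefSeq gave 9 windows for 6 of the members, 4 of them for Gjb1, and 2 of the 9 held the SOX core while 3 held the GC box. Among all 32817 mouse promoter windows, 18.7% held the SOX core and 35.6% held the GC box, so the letters are common and a match is a description only.

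Between 17263830 and 21595832 expected counts were deposited per library, and 16751 genes had enough counts for a test. An expected count is an estimate of the reads of a gene, CPM is the count relative to the TMM-scaled library size, and TPM is a relative level that also divides by transcript length. All 7 members passed the low-count filter. At an adjusted p under 0.05 by edgeR's quasi-likelihood test, 4647 of the tested genes (27.7%) were called, 14.3% higher and 13.4% lower in Dor cKO. Among the members, 3 were higher, 2 were lower and 2 were not called. The order of members by fold change followed their assigned cell types: both oligodendrocyte genes were lower, and the 3 astrocyte genes were higher. Dor is a synonym of Trp53inp2, although DOR is also listed for the opioid receptor gene Oprd1. Trp53inp2 had 105 and 107 CPM in Dor cKO, against 138 and 134 CPM in Dor WT, a log2 fold change of -0.36 ± 0.04 (SE; adjusted p = 2.73e-08, edgeR). That call was lost with limma on log2(TPM + 1) (adjusted p = 0.078), and whole-gene counts cannot show the loss of single exons.

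**Figure D1:**
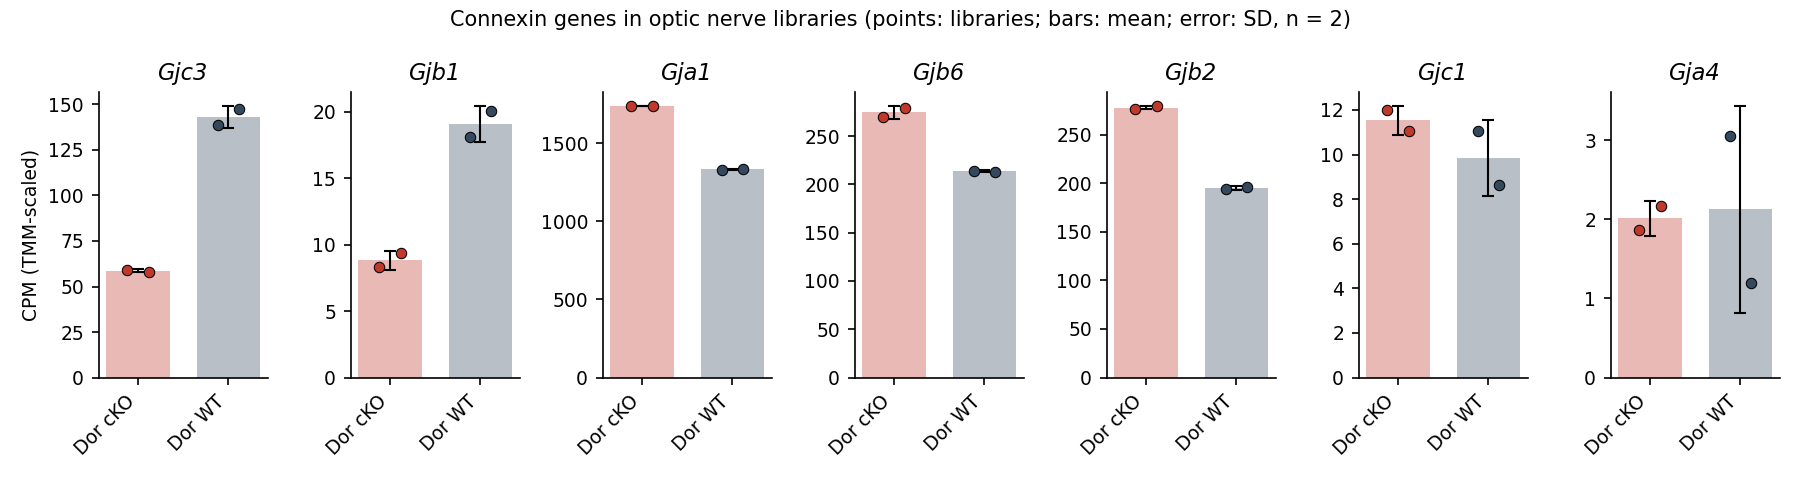
CPM of each connexin gene in each library, with Dor cKO left of Dor WT in each panel; points are libraries, bars are group means and error bars are SD (n = 2 per group). Gjc3 lies at 58.0 and 59.2 CPM in Dor cKO and at 139 and 148 CPM in Dor WT, Gja1, Gjb6 and Gjb2 lie higher in Dor cKO, and the Gja4 groups overlap.

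Gjc3 was the most reduced of the members. It had 59.2 and 58.0 CPM in Dor cKO, against 139 and 148 CPM in Dor WT. Both Dor cKO libraries were below both Dor WT libraries, with a gap far wider than the spread within either group. The means were 58.6 ± 0.827 CPM in Dor cKO and 143 ± 6.12 CPM in Dor WT (SD, n = 2 each). The log2 fold change was -1.29 ± 0.05 (SE; 95% interval -1.39 to -1.20), 2.45-fold lower, with an adjusted p of 5.37e-19 by edgeR. Only 0.985% of tested genes had a fold change at or below it.

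Gjb1, the myelin connexin mutated in the X-linked form of Charcot-Marie-Tooth neuropathy, was the other reduced member. It had 8.29 and 9.34 CPM in Dor cKO, against 18.1 and 20.1 CPM in Dor WT. These levels rest on 174 and 194 counts in Dor cKO and on 315 and 436 counts in Dor WT. The groups did not overlap, and the gap between them was wider than either group's own range. The log2 fold change was -1.12 ± 0.12 (SE; 95% interval -1.37 to -0.86), 2.17-fold lower, with an adjusted p of 2.96e-08 by edgeR. Its interval contains the fold change of Gjc3, and the difference between the 2 genes was not tested.

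The reductions stood among a wider reduction of myelin genes. All 12 oligodendrocyte and myelin markers were lower in Dor cKO, with a median log2 fold change of -0.88, against -0.0036 over all tested genes. Of all tested genes, 13.4% were lower. With limma on log2(TPM + 1) 11 of the 12 were lower, and also 11 with the biological coefficient of variation fixed at 0.1. The summed level of the 12 was 18318 and 18227 CPM in Dor cKO, against 31807 and 31688 CPM in Dor WT. Myelin basic protein (Mbp) averaged 9450 CPM in Dor cKO and 15647 CPM in Dor WT. Gjc3 had a lower fold change than 10 of the 12 markers and Gjb1 a lower one than 9. In bulk RNA, fewer oligodendrocytes and less RNA per oligodendrocyte cannot be told apart.

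**Figure D2:**
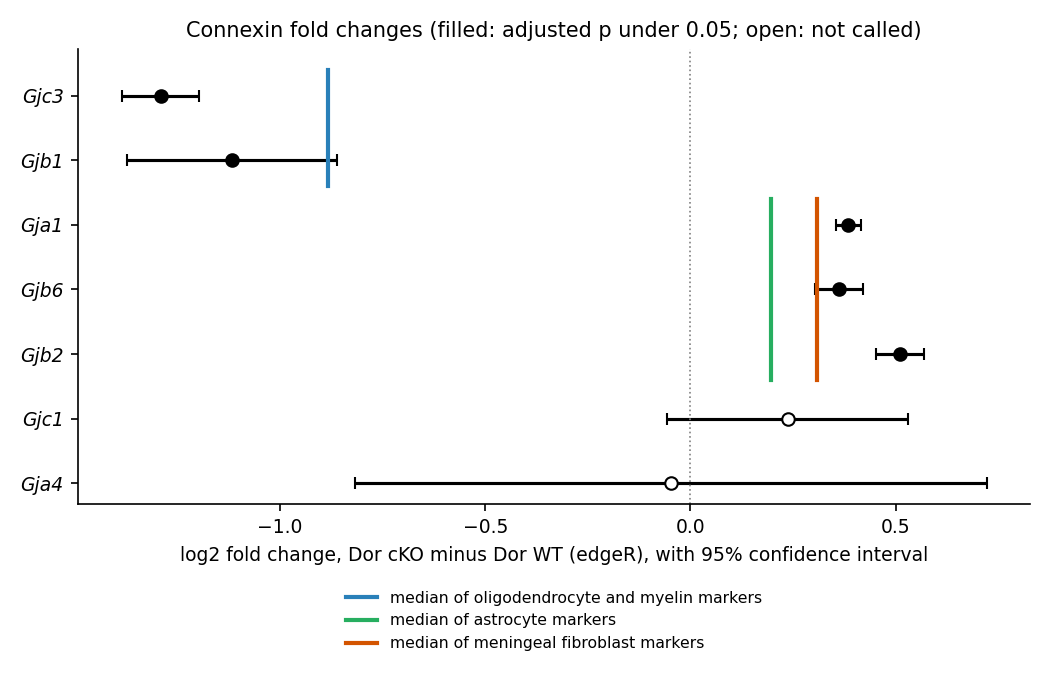
Log2 fold change (Dor cKO minus Dor WT) of each connexin gene from edgeR; points are estimates (filled where called), bars are 95% intervals and vertical lines are medians of 3 marker lists. Gjc3 (-1.29) and Gjb1 (-1.12) lie left of 0, Gja1 (0.38), Gjb6 (0.36) and Gjb2 (0.51) lie right of it and of the astrocyte median (0.20), and the intervals of Gjc1 and Gja4 cross 0.

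The 3 astrocyte connexins were higher in Dor cKO by factors well under those of the oligodendrocyte genes. Gja1 had 1740.0 and 1737 CPM in Dor cKO, against 1328 and 1336 CPM in Dor WT. The libraries of each group lay within a few CPM of one another and the groups were far apart. The log2 fold change was 0.38 ± 0.01 (SE; 95% interval 0.35 to 0.41), 1.31-fold higher, with an adjusted p of 2.47e-18 by edgeR.

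By CPM, Gjb2 showed the largest rise of the 7 members, whereas by TPM Gjb6 did (log2 ratio of mean TPM 0.55 for Gjb6 and 0.49 for Gjb2). It had 277 and 279 CPM in Dor cKO, against 194 and 197 CPM in Dor WT. Again the groups did not overlap, and each group's range was small beside the gap. This was a log2 fold change of 0.51 ± 0.03 (SE; 95% interval 0.45 to 0.57), 1.42-fold higher, with an adjusted p of 1.45e-14 by edgeR.

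Gjb6, the chromosomal neighbour of Gjb2, had 269.8 and 279.6 CPM in Dor cKO, against 214 and 213 CPM in Dor WT. Both Dor cKO libraries were above both Dor WT libraries. By edgeR the log2 fold change was 0.36 ± 0.03 (SE; 95% interval 0.30 to 0.42), 1.28-fold higher, with an adjusted p of 3.21e-11. Fold changes of this size were not rare, since 88.6% of tested genes lay at or below Gjb6, 89.6% at or below Gja1 and 93.9% at or below Gjb2.

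The calls of Gja1 and Gjb6 did not hold in 1 alternative. With a likelihood ratio test and the biological coefficient of variation fixed at 0.1 in place of the common estimate of 0.03477, Gja1 (adjusted p = 0.071) and Gjb6 (adjusted p = 0.101) were not called, while Gjb2 (adjusted p = 0.00922), Gjc3 and Gjb1 were.

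Astrocyte markers moved the same way in most cases and by less. Of 10 markers 8 were higher and 1 was lower, against 14.3% and 13.4% of all tested genes. The markers had a median log2 fold change of 0.20. Their sum was 14357 and 14386 CPM in Dor cKO, against 13267 and 13243 CPM in Dor WT. Gfap, the intermediate filament gene of astrocytes, averaged 10214 CPM in Dor cKO and 9532 CPM in Dor WT. Gja1 and Gjb6 were above 9 of the 10 markers by fold change, and Gjb2 was above all 10. At the fixed coefficient of variation, 1 of these markers was called higher.

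Meningeal fibroblast markers were also higher, in 8 of 8 cases against 14.3% of all tested genes, with a median log2 fold change of 0.31. Their sum was 13334 and 13357 CPM in Dor cKO, against 10408 and 10411 CPM in Dor WT. Igf2, a growth factor gene of the meninges, averaged 5058 CPM in Dor cKO and 3701 CPM in Dor WT. Gja1 and Gjb6 were above 6 of these 8 markers by fold change and Gjb2 above 7. At the fixed coefficient of variation, 2 of the 8 were called. Connexins of this group are also expressed by meningeal cells, and the part of that tissue in their levels was not tested.

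The vascular members were not called. Gjc1 had 12 and 11.1 CPM in Dor cKO, against 11.1 and 8.66 CPM in Dor WT. The second Dor cKO library and the first Dor WT library had nearly the same level. The log2 fold change was 0.24 ± 0.14 (SE; 95% interval -0.06 to 0.53; adjusted p = 0.246, edgeR), so a rise of up to that bound cannot be set aside at this depth. It was 0.06 without the second Dor WT library and 0.41 without the first (adjusted p = 0.0568), with no call in either case.

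Gja4 had the fewest counts of the members, with 39 and 45 counts in Dor cKO, against 53 and 26 counts in Dor WT. Those correspond to 1.86 and 2.17 CPM in Dor cKO, against 3.05 and 1.20 CPM in Dor WT. Both Dor cKO libraries lay between the 2 Dor WT libraries. Its log2 fold change was -0.05 ± 0.37 (SE; 95% interval -0.82 to 0.72; adjusted p = 0.947, edgeR). Leaving out the first Dor WT library gave 0.75, and leaving out the second gave -0.60, both without a call.

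Markers of vessels were called in part. The summed level of 9 endothelial markers was 326 and 330 CPM in Dor cKO, against 273 and 281 CPM in Dor WT, and 4 were higher, or 2 where either Dor cKO library was left out. Of 9 mural cell markers 2 were higher and 3 lower, with a sum of 868 and 861 CPM in Dor cKO, against 719 and 744 CPM in Dor WT. Vtn, the vitronectin gene, made up most of that sum, with a mean of 616 CPM in Dor cKO and 486 CPM in Dor WT, and the list's median log2 fold change was -0.10. Of 6 arterial markers 1 was higher and 2 were lower. Among all tested genes, 14.3% were higher and 13.4% were lower. Without the second Dor WT library 2 arterial markers were higher, and without the first Dor cKO or the first Dor WT library 1 was lower. With limma on log2(TPM + 1), 1 endothelial and 1 mural marker were higher, and 0 mural markers and 1 arterial marker were lower. At the fixed coefficient of variation 0 endothelial, 0 mural and 0 arterial markers were higher. In that setting 1 mural and 1 arterial marker were lower.

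By TPM, which allows genes to be compared, Gja1 was the most abundant of the members in each library. It had 887 and 885 TPM in Dor cKO, against 685 and 692 TPM in Dor WT. The order of mean TPM in Dor cKO was Gja1 (886), Gjb6 (262), Gjb2 (185), Gjc3 (23.1), Gjc1 (9.58), Gjb1 (9.48) and Gja4 (2.02). In Dor WT it was Gja1 (688), Gjb6 (179), Gjb2 (132), Gjc3 (56.8), Gjb1 (20.9), Gjc1 (8.41) and Gja4 (2.16). Gjb1 thus stood above Gjc1 in Dor WT, whereas in Dor cKO the libraries of these 2 genes overlapped. Each other pair of neighbours in the order was separated by more than the range of its libraries.

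Shares of all connexin transcripts describe their make-up in each library. The 20 connexin genes of the annotation summed to 1421 and 1457 TPM in Dor cKO, against 1167 and 1190 TPM in Dor WT. Gja1, Gjb6 and Gjb2 together made up 92.9% and 92.5% of that sum in Dor cKO, against 84.8% in each Dor WT library. Gjc3 made up 1.60% and 1.62% in Dor cKO, against 4.67% and 4.96% in Dor WT. Gjb1 made up 0.627% and 0.689% in Dor cKO, against 1.70% and 1.85% in Dor WT. Together these 2 oligodendrocyte genes came to 2.22% and 2.31% in Dor cKO, against 6.37% and 6.81% in Dor WT. No test was made on these shares, since 2 libraries against 2 cannot give an exact permutation p under 0.33.

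**Figure D3:**
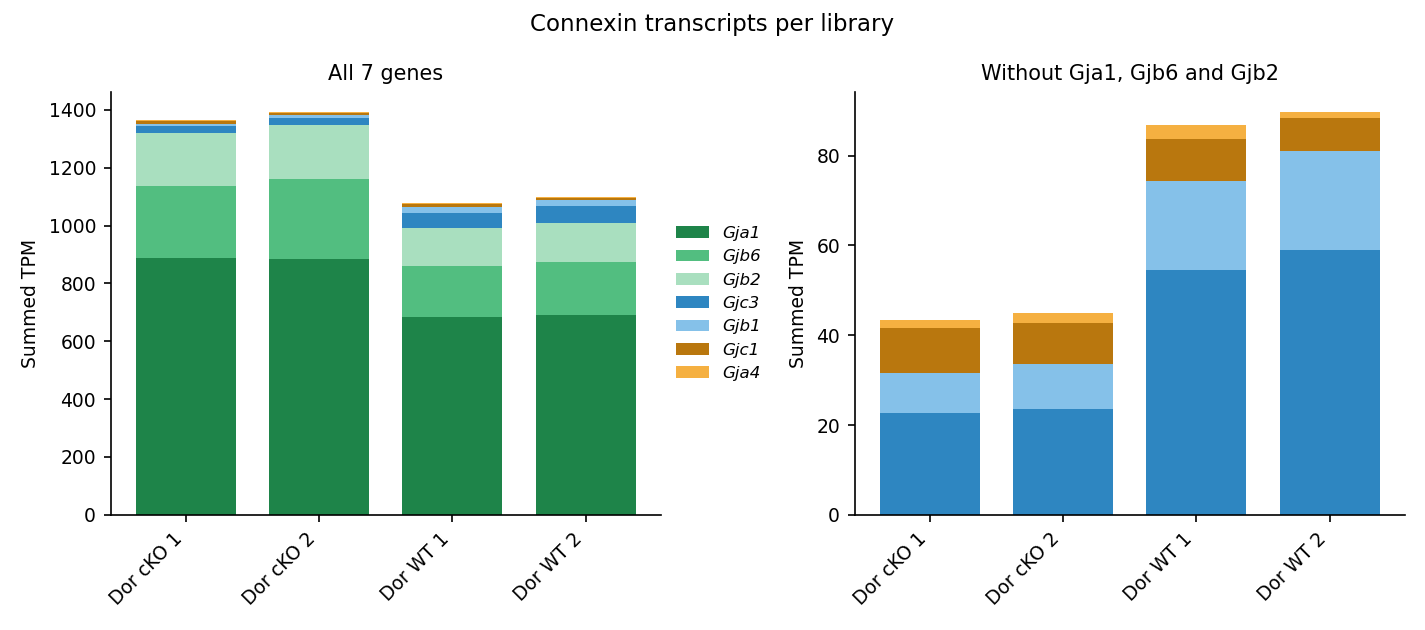
Summed TPM of the 7 members in each library as stacked bars, Dor cKO libraries left of Dor WT libraries; the left panel shows all 7 genes and the right panel leaves out Gja1, Gjb6 and Gjb2. Bars are taller in Dor cKO on the left, where Gja1 (887 and 885 TPM in Dor cKO, 685 and 692 TPM in Dor WT) takes most of each, and shorter in Dor cKO on the right.

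Ratios within a library, which do not depend on scaling between libraries, were set side by side. The ratio of Gja1 to Gjb1 TPM was 99.6 and 88.2 in Dor cKO, against 34.5 and 31.5 in Dor WT. The ratio of Gja1 to Gjc3 TPM was 39.1 and 37.5 in Dor cKO, against 12.6 and 11.7 in Dor WT. Gja1 transcripts thus outnumbered those of Gjb1 and Gjc3 by a wider margin in both Dor cKO libraries. Within the oligodendrocyte genes, Gjb1 to Gjc3 was 0.393 and 0.425 in Dor cKO, against 0.364 and 0.372 in Dor WT, a gap narrower than the spread within Dor cKO. Within the astrocyte genes, Gjb2 to Gjb6 by TPM was 0.743 and 0.676 in Dor cKO, against 0.750 and 0.725 in Dor WT, which overlap. By CPM the same ratio was 1.03 and 1.00 in Dor cKO, against 0.904 and 0.922 in Dor WT, which do not overlap.

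That discrepancy follows from the transcript lengths of Gjb6. RSEM weights the length of a gene by the abundance of its transcripts, and the weighted length of Gjb6 was 1803 and 1697 bases in Dor cKO, against 2040 and 1944 bases in Dor WT. Both Dor cKO libraries were assigned shorter Gjb6 transcripts than both Dor WT libraries. The annotation gives Gjb6 a coding transcript of 2105 bases, a shorter coding one of 887 bases, a retained intron of 1918 bases and a processed transcript of 201 bases. Because TPM divides by length, the log2 ratio of mean Gjb6 TPM was 0.55, against 0.36 for CPM. The mean fragment length was 245.5 and 245.3 bases in Dor cKO, against 259.6 and 260.0 bases in Dor WT, and its part in the weighted length was not tested.

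The other called members showed little of this. Gjb2 was fixed at 2406 bases, and Gja1 lay at 3070 and 3070 bases in Dor cKO, against 3069 and 3063 bases in Dor WT. Gjc3 had weighted lengths of 4002 and 3784 bases in Dor cKO, against 3952 and 3888 bases in Dor WT, which overlap. Gjb1 was at 1585 bases in each library, which equals ENSMUST00000119190.1, the transcript that starts at position 101383736 of chromosome X. Its other transcripts, of 1565 and 1513 bases, start further upstream. RSEM thus assigned Gjb1 reads to the transcript whose start lies 4 bases from the start site of the Gjb1 window printed above.

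**Figure D4:**
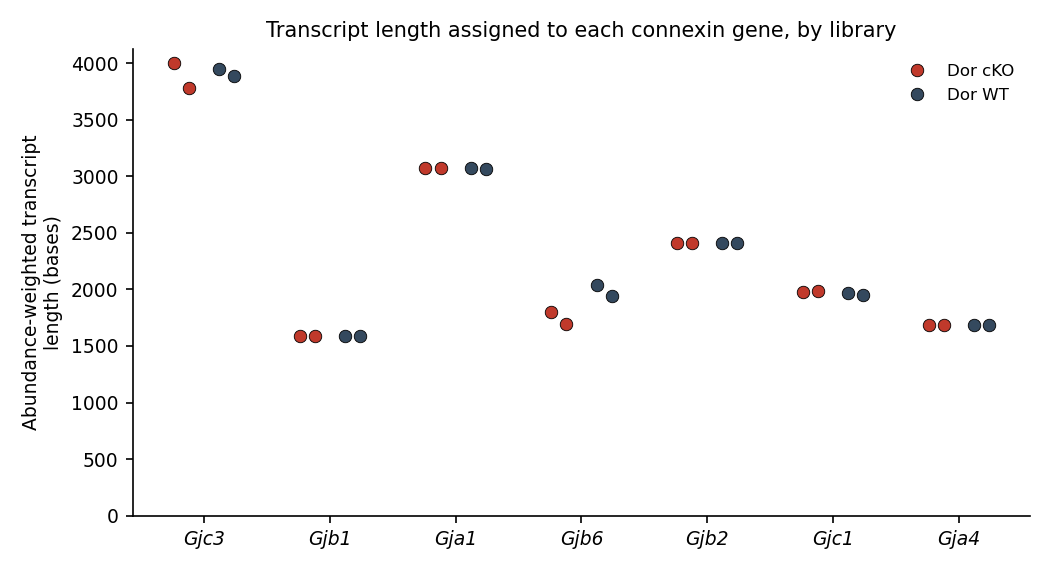
Abundance-weighted transcript length in bases assigned to each connexin gene in each library, Dor cKO left of Dor WT. Gjb6 lies at 1697 to 1803 bases in Dor cKO and at 1944 to 2040 bases in Dor WT, and Gjb1 and Gjb2 do not move.

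Of the 16 other connexin and pannexin genes, 9 had enough counts for a test. Panx1, which encodes a large-pore channel of the pannexin family, was lower in Dor cKO, with 34.2 and 32.1 CPM in Dor cKO, against 53.7 and 52 CPM in Dor WT. Its log2 fold change was -0.67 ± 0.07 (SE; adjusted p = 4.38e-09, edgeR), and the call was lost with limma on log2(TPM + 1) (adjusted p = 0.0716). Panx2, Gja3, Gja5, Gjb5 and Gjd2 were not called, with log2 fold changes between -0.52 (Gja5) and 0.57 (Gjb5). Gja6, Gjd4 and Gje1 had no counts in any library.

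Of 13 genes whose proteins bind connexins or govern their trafficking and turnover, 7 were higher in Dor cKO, against 14.3% of all tested genes. The median log2 fold change of the 13 was 0.15. Ccn3, whose product binds Cx43, averaged 1102 CPM in Dor cKO and 834 CPM in Dor WT. Tjp1, the scaffold ZO-1 at the edge of Cx43 plaques, averaged 464 CPM in Dor cKO and 386 CPM in Dor WT. The ubiquitin ligase gene Nedd4 averaged 1201 CPM in Dor cKO and 1080 CPM in Dor WT, and Ezr, which encodes the anchor protein ezrin, averaged 196 CPM in Dor cKO and 156 CPM in Dor WT. With limma on log2(TPM + 1) 2 of the 13 were higher, against 666 of all 16751 tested genes. With edgeR's likelihood ratio test at the fixed coefficient of variation 0 of the 13 were higher, or 2 at an unadjusted p under 0.05. At an adjusted p under 0.05, 703 of all 16751 genes were higher in that test.

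Ion and water handling by astrocytes and myelin shares with the gap junctions the task of clearing axonal potassium. Of 15 genes for it, 10 were higher and 3 lower, against 14.3% and 13.4% of all tested genes. Atp1b2, a subunit of the glial sodium pump, averaged 786 CPM in Dor cKO and 631 CPM in Dor WT. The glutamate transporter gene Slc1a3 averaged 1034 CPM in Dor cKO and 888 CPM in Dor WT. The water channel gene Aqp4 went against the astrocyte connexins, with 582 CPM in Dor cKO and 742 CPM in Dor WT. Atp1b2, Slc1a3 and Aqp4 are also among the astrocyte markers counted above. At the fixed coefficient of variation 1 of the 15 was higher and 2 were lower. The potassium channel genes Kcna1 and Kcna2 belong to the 15 and were chosen after their values were seen. They are among the 3 lower genes and are the 2 lower at the fixed coefficient of variation. The counts of lower genes were thus set in part by that choice. The Kcna1 channel lies in the axonal region that Cx29 faces. Kcna1 had 6.48 and 6.79 CPM in Dor cKO, against 19.8 and 20.6 CPM in Dor WT. Its log2 fold change was -1.61 (adjusted p = 3.07e-11, edgeR). Kcna2 fell less, with 50.8 and 45.8 CPM in Dor cKO, against 70.6 and 71.9 CPM in Dor WT. Its log2 fold change was -0.56 (adjusted p = 1.35e-08, edgeR). Which cells gave the RNA of these genes was not tested.

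The genes whose pattern over the 4 libraries lay nearest to each member were found by the Euclidean distance between centred log2 CPM profiles, among 11796 coding genes of at least 5 CPM. With 2 groups of 2, this distance mainly ranks genes by likeness of fold change. Few genes lay near the oligodendrocyte members. For Gjc3 the nearest were Pak7, Scg2 and Olig1 (distances 0.034, 0.069 and 0.082), and 3 genes lay within 0.1. For Gjb1 they were Prkcq, Enpp6 and Slc1a1 (0.096, 0.11 and 0.11), with 1 gene within 0.1.

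Around the astrocyte members the field was crowded, with 448 genes within 0.1 of Gja1, 468 of Gjb6 and 194 of Gjb2. The nearest to Gja1 were Fn1, Tsc22d1 and Col5a1, and the nearest to Gjb6 were Hopx, Tango6 and Col5a2. Those of Gjb2 were Mov10, Ssc5d and Lbp. Fn1, Col5a1 and Col5a2 encode extracellular matrix proteins. For Gjc1 the nearest were Gps2, Manba and Pex26, with 30 genes within 0.1.

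**Figure D5:**
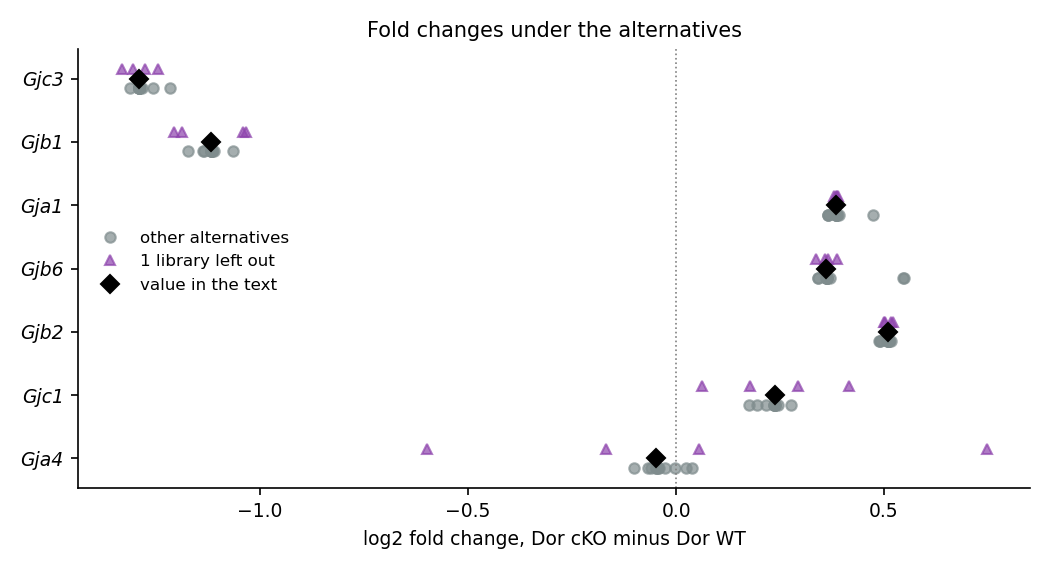
Log2 fold change (Dor cKO minus Dor WT) of each member under 16 alternatives; diamonds are the values in the text, triangles leave out 1 library and circles are the other alternatives. The points of Gjc3, Gjb1, Gja1, Gjb6, Gjb2 and Gjc1 stay on 1 side of 0, and those of Gja4 spread from -0.60 to 0.75.

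Of all tested genes, 60.8% had CPM ranges that did not overlap between the groups, so a lack of overlap alone says little about a member. Libraries correlated slightly better within groups (r of log2 CPM 0.989 in Dor cKO and 0.988 in Dor WT) than between them (0.979 to 0.981). Pituitary markers, of a tissue that lies near the nerve, summed to 3.14 and 2.46 CPM in Dor cKO, against 33.4 and 30.3 CPM in Dor WT. Of these, the hormone subunit gene Cga had 0 counts in both Dor cKO libraries, against 275 and 376 counts in Dor WT. Schwann cell markers summed to 37.0 and 31.9 CPM in Dor cKO, against 35.1 and 31.6 CPM in Dor WT. Gjb1 and Gjc3 are also expressed by Schwann cells. The part of carried-over tissue in the connexin levels was not tested.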

How the data were processed

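RNA of 4 mouse optic nerve libraries was measured, 2 Dor cKO and 2 Dor WT. The tools Trimmomatic 0.36, STAR 2.7.9a and RSEM 1.3.1 and the build GRCm38 are listed in the submitters' processing notes, without the role of each. Per the file headers, the authors deposited RSEM gene tables with an expected count, a TPM value and lengths per gene. The labels' protocols describe a stranded mRNA kit and paired reads of 150 bases. The annotation release and the use of strand in counting are not given in the sources used here. Symbols and coordinates came from a GRCm38 gene annotation that matched 55141 of the 55401 identifiers.

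The deposited expected counts were rounded, filtered with filterByExpr (minimum count 10, minimum total 15), scaled by TMM and compared with edgeR 4.0.16 (quasi-likelihood, robust, group as the only term, R 4.3.3). P-values were adjusted by Benjamini-Hochberg over all 16751 tested genes, and called means an adjusted p under 0.05. Fold changes are Dor cKO over Dor WT, and intervals cover 95%. A floor of 3 counts equals 0.139 to 0.174 CPM and, like the intervals, reflects these libraries only.

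Alternatives were DESeq2 1.42.0, limma 3.58.1 on log2(TPM + 1) and log2(TPM + 0.1) from the deposited TPM, other scalings and filters, a coefficient of variation of 0.1 with a likelihood ratio test, a replicate block and leaving out each library. Removal of a length and GC trend was added after the data were seen. The scripts were tested on simulated data.

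The 7 members and the gene lists were chosen with earlier results of these data known. Named genes were the members, the tested genes of the other connexin and pannexin list, up to 4 called genes of highest mean CPM of a list, the 3 nearest profiles of each member of at least 5 CPM, and Trp53inp2; some genes so selected are not reported here.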

Additional observations from a re-analysis of the deposited data

How the results depend on the processing

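Gjc3 (log2 fold change -1.33 to -1.22), Gjb1 (-1.21 to -1.03) and Gjb2 (0.49 to 0.52) kept their direction and call in all 16 alternatives, and Gja1 and Gjb6 in 15. At a coefficient of variation of 0.1, Gja1 (0.38, adjusted p = 0.071) and Gjb6 (0.36, adjusted p = 0.101) were not called by the likelihood ratio test, so 1 member was higher. The direction of Gja4 turned with limma on log2(TPM + 0.1) (0.038), with the replicate block (0.024) and without the first Dor cKO (0.05) or first Dor WT library (0.75), over a range of -0.60 to 0.75 with 1 library left out. Over all genes, 666 were higher and 722 lower with limma on log2(TPM + 1), 672 higher and 734 lower with log2(TPM + 0.1), and 703 higher and 891 lower at a coefficient of variation of 0.1, against 2399 higher and 2248 lower with the main test. The cause of these differences was not tested. With log2(TPM + 1) Gjb6 was at 0.55 (adjusted p = 0.0117), since its length differed between groups. Libraries of equal number did not deviate together (r = -0.018), and the replicate block, with 2562 genes higher and 2409 lower, changed no call of a member (Gjc3 -1.29, Gjb1 -1.12, Gja1 0.38, Gjb6 0.36, Gjb2 0.51, Gjc1 0.24). Depth limits Gja4 most, at 26 to 53 counts per library. Gjc1 (188 to 252 counts) and Gjb1 (174 to 436 counts) also had few.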

Other observations

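Of 7 oligodendrocyte precursor markers, 5 were lower in Dor cKO, or 3 at the fixed coefficient of variation, with a median log2 fold change of -0.14. Their sum was 1229 and 1228 CPM in Dor cKO, against 1714 and 1671 CPM in Dor WT. Gpr17 had the lowest fold change of the list (-1.18), with a mean of 251 CPM in Dor cKO and 569 CPM in Dor WT. Pdgfra (-0.07) and Ptprz1 (-0.07) were called but moved little, and Cspg4 and C1ql1 were not called. Of 8 microglia markers, 5 were higher and 1 was lower, against 14.3% and 13.4% of all tested genes. At the fixed coefficient of variation 1 was higher and 0 were lower, and with limma on log2(TPM + 1) 3 were higher and 1 lower. Neuron and axon markers summed to 139.8 and 135 CPM in Dor cKO, against 141 and 137 CPM in Dor WT.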
